A study of Drosophila melanogaster with 4 samples.

Results

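Of the 9599 regions that the peaks of 4 CUT&RUN libraries formed together on the 6 main arms of the Drosophila melanogaster genome, 220 lay at the ends of genes and carried a peak both where the remodeler subunit Osa was tagged with GFP and where no GFP was present. They were chosen by the peak calls themselves. Each was called in Osa-GFP replicates 1 and 2 and yw replicate 2 but not in yw replicate 1, and was centred within 500 bp of either end of the span of a protein-coding gene. Of all merged regions, 13.4% met the condition on libraries and 20.1% the condition on distance. Their presence in these libraries, their fragment numbers and their widths are therefore descriptions and no finding. The exact position of summits within a region, the number of genes beyond the first that end there and the identity of those genes were not used to choose them. Merged peaks have to overlap, however, which limits how far apart their summits can lie.

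In CUT&RUN an antibody carries a nuclease to its target on chromatin, and the fragments cut loose there are sequenced. Osa is the large subunit that sets the BAP class of SWI/SNF remodelers apart, complexes that slide or evict nucleosomes at promoters and enhancers and that keep patterning genes of the wing disc in check. The ends of genes hold their promoters and their termination sites. Promoters of active genes are depleted of nucleosomes, and an untethered nuclease is known to cut such open DNA as well, which is why a sample with no target for the antibody is run beside the tagged one.

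All libraries came from wing imaginal discs, the larval precursors of the wing and notum, of wandering-stage female larvae raised at 25 °C, with 20 to 22 discs per replicate, and all were treated with the same rabbit anti-GFP antibody. There were 2 libraries of genotype Osa-GFP and 2 of genotype yw, a laboratory strain named for the markers yellow and white. Whether the tag sits on 1 or both copies of osa, and whether replicates came from separate crosses, is not given in the sources used here, so the spread between replicates may be technical. A peak list does not measure expression, so the tissue was not checked against marker levels.

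The height of a peak is given here as the number of fragments over its summit, recovered as a whole number from the fold that the authors' peak caller deposited. The mean number of fragments over any position, the measure of depth, was 0.472 and 0.460 in the Osa-GFP libraries, against 0.120 for yw replicate 1 and 0.481 for yw replicate 2. Osa-GFP replicates 1 and 2 and yw replicate 2 were thus of like depth, and their summits are set side by side below. The first yw library had 4 times less depth than the second, and its lowest called summit held 3 fragments. Scaled to that depth, the yw replicate 2 summit reached 3 fragments in 59 of the 220 regions (26.8%, exact 95% interval 21.1% to 33.2%) and stayed under it in 161. For those 161, the lack of a yw replicate 1 peak was not a detectable difference at this depth. In the 59, a summit of the scaled height could have been called in yw replicate 1. The rule kept only regions without such a peak, so its lack there is no finding. Counting error in so few fragments was not taken into account. A yw replicate 1 summit lay within 1000 bp of the centre of 4 of the regions.

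The summits of the 220 regions were of similar height in the tagged and the untagged libraries. Their median was 10 fragments in Osa-GFP replicate 1, 10 in Osa-GFP replicate 2 and 9 in yw replicate 2. In 104 regions (47.3%, 40.5% to 54.1%) the yw replicate 2 summit was lower than both Osa-GFP summits. In 67 (30.5%, 24.4% to 37.0%) it was higher than both, and in the other 49 it lay between them or was tied with one. Which order was the more frequent depended on the threshold. With a limit of 250 bp, yw was below in 52 and above in 52. At −log10 q of 5 or more it was below in 37 and above in 43. At 10 or more it was below in 9 and above in 17. The q thresholds were applied to every library and the regions chosen again, so these regions are not all among the 220. Only 22 of the 220 reached 10 in all 3 libraries, against 32 regions at that setting. Without Osa-GFP replicate 1, yw was below the remaining tagged library in 118 and above it in 141. With yw replicate 1 left out of the rule, yw replicate 2 was below both tagged libraries in 107 and above both in 97. Over all 1283 regions with peaks of the same 3 libraries, wherever they lay, the yw summit was below both in 66.7% and above both in 17.1%. Away from gene ends the 1063 regions had medians of 15, 12 and 8 fragments in the same order. These fragment numbers are small. The exact 95% Poisson interval of the yw summit lay wholly below both Osa-GFP intervals in 3 of the 220 regions and wholly above both in 2, where the background over the 1283 regions was 8.89% and 1.25%. In every other region the yw interval overlapped that of at least 1 Osa-GFP library. All statements on yw height rest on 1 library, and no test between genotypes can be made of them.

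**Figure D1:**
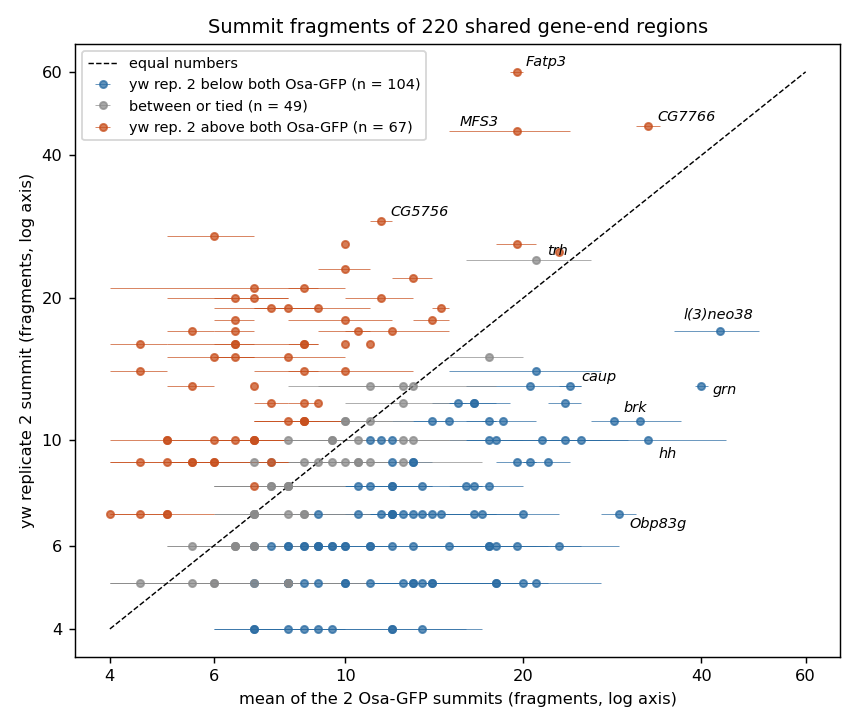
Each point is 1 of the 220 regions, with the mean of the 2 Osa-GFP summits on the x axis (bars run from replicate to replicate) and the yw replicate 2 summit on the y axis, both in fragments on log axes. Blue marks the 104 regions with yw below both Osa-GFP libraries, orange the 67 with yw above both and grey the 49 in between; Fatp3 stands highest for yw with 60 fragments and l(3)neo38 farthest right with 50 and 36.

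The 3 regions with the yw interval wholly below both Osa-GFP intervals were at grn, Obp83g and kmr. grain (grn), a GATA transcription factor gene, had a region of 555 bp on 3R from 8181416 to 8181970 (dm6), centred 249 bp outside its span, with 41 and 39 fragments in the tagged libraries against 13 in yw replicate 2. Both tagged libraries stood above the control there, whose own summit was still above its median of 9. At Obp83g, an odorant-binding protein gene, the numbers were 31, 27 and 7 in the same order, and at kmr 20, 20 and 5. The yw summit at kmr lay 503 and 486 bp from those of Osa-GFP replicates 1 and 2, in a region of 1302 bp. The heights compared at kmr are therefore not of the same position. At grn the yw summit lay 56 bp from both, and at Obp83g 88 and 50 bp. The 2 regions with yw wholly above both were at Fatp3, a gene of the fatty acid transport protein family, and CG11151. Fatp3 had 19 and 20 fragments in the Osa-GFP libraries and 60 in yw replicate 2, the highest yw summit among the 220, on 2R from 24293409 to 24294067. CG11151 had 7, 5 and 27, so the tagged libraries were both low and close to each other. The next highest yw summits were at CG7766 (46 against 31 and 34) and at the transporter gene MFS3 (45 against 24 and 15). The yw interval overlapped both Osa-GFP intervals at CG7766, and at MFS3 that of replicate 1 alone. Scaled to the depth of yw replicate 1, the yw replicate 2 summits at Fatp3, CG7766 and MFS3 came to 15.0, 11.5 and 11.3 fragments. The lowest summit called in yw replicate 1 held 3. The rule kept only regions without a yw replicate 1 peak, so the lack of one here is no finding. Signal of yw replicate 1 under the calling threshold was not measured, and the high yw summits rest on yw replicate 2 alone.

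Ranked by the worse of their places in the 3 lists, the first 12 regions mixed both kinds. CG7766 led, followed by l(3)neo38, a zinc finger gene, whose region was also the widest of all at 2706 bp and had 50, 36 and 17 fragments in Osa-GFP replicates 1 and 2 and yw replicate 2. Ppa, an F-box protein gene, had 23, 23 and 25, with overlapping intervals. Then came caupolican (caup), a homeobox gene of the Iroquois complex, with 23, 25 and 13, and grn. CG2003 had 25, 22 and 12, and CG46304 had 25, 16 and 13. trachealess (trh), the bHLH-PAS selector of the trachea, had 26 and 16 in the Osa-GFP libraries with 24 in yw between them. Fatp3 and MFS3 followed. The list closed with no ocelli (noc), a zinc finger gene, at 20, 15 and 15, and polyhomeotic distal (ph-d), a Polycomb group gene, at 27, 15 and 14. The other 2 of the 3 widest regions were at chic, the profilin gene (2424 bp; 10, 4 and 21 fragments), and at CNBP (1990 bp; 24, 20 and 9). At the other extreme 9 regions had the lowest yw summit that was called, 4 fragments. They lay at uif, Spn28Dc, emc, dsx, CG6118, CG7702, Inx3, Dok and zld, and both Osa-GFP summits were higher at each. The lowest called summit was 4 fragments in both Osa-GFP libraries too, so their summits could only tie with yw or exceed it.

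**Figure D2:**
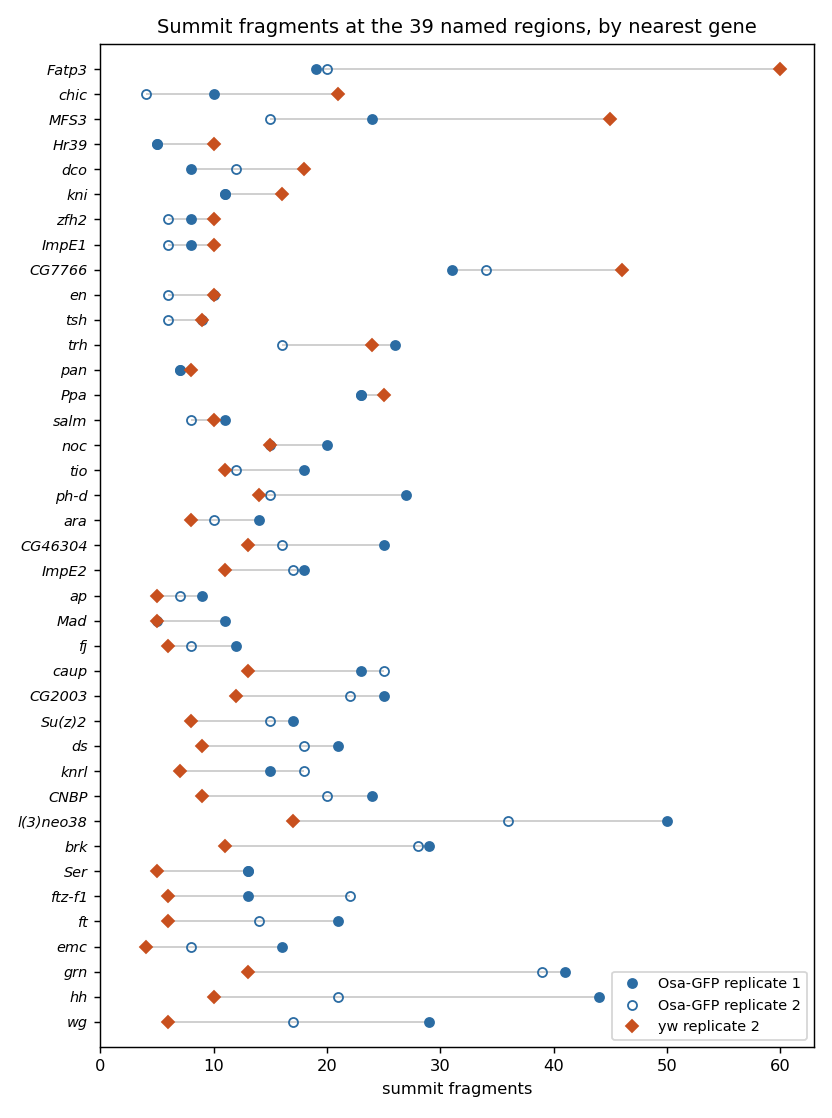
Summit fragments (x axis) at 39 regions that are named by the rules for ranks, widths, yw height and gene lists, 1 row per nearest gene, ordered by the yw number over the Osa-GFP mean. Filled and open blue circles are Osa-GFP replicates 1 and 2 and orange diamonds yw replicate 2; wg, hh and grn at the bottom have 6, 10 and 13 yw fragments against Osa-GFP numbers of 17 to 44, and Fatp3 at the top has 60 against 19 and 20. Tied values overlap.

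Each of the 220 regions had a nearest gene of its own, which is 1.58% of the 13922 protein-coding genes. Genes that give the wing disc its regions were among them in 9 of 28 cases. wingless (wg), which encodes a Wnt ligand made along the wing margin, had 29, 17 and 6 fragments in Osa-GFP replicates 1 and 2 and yw replicate 2, in a narrow region of 315 bp on 2L from 7306809 to 7307123. caup and its Iroquois neighbour araucan (ara; 14, 10 and 8) both had a region in which yw was lowest. So did tiptop (tio), a zinc finger gene (18, 12 and 11), and apterous (ap), the LIM-homeobox selector of the dorsal compartment (9, 7 and 5). The posterior selector engrailed (en; 10, 6 and 10), teashirt (tsh; 9, 6 and 9) and spalt major (salm; 11, 8 and 10) had yw numbers between the replicates or tied with replicate 1. Zn finger homeodomain 2 (zfh2; 8, 6 and 10) was the only gene of the list with yw above both. The differences at the last 4 genes are a few fragments each.

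Of 19 vein and intervein genes, 5 were nearest genes. They were ara and caup, extra macrochaetae (emc), an inhibitor of proneural factors, with 16, 8 and 4 fragments, and the paralogous zinc finger genes knirps (kni) and knirps-like (knrl). knrl had 15, 18 and 7 in a region 43.5 bp outside its span, whereas kni, its neighbour on 3L, had 11, 11 and 16. These related genes thus stood on opposite sides of the order, though the intervals of the libraries overlapped at both.

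Genes of the Fat and Dachsous system had regions at both cadherins and at their modifier. The list of Hippo pathway and growth genes had 4 of 16. dachsous (ds) had 21, 18 and 9 fragments, fat (ft), its receptor, 21, 14 and 6, and four-jointed (fj), the Golgi kinase that modifies both, 12, 8 and 6. In all 3 yw was lowest, though its interval overlapped both Osa-GFP intervals at each. The strongest summits lay up to 606 bp apart at ds, 1249 bp at ft and 186 bp at fj, so the heights are not all of 1 position. The exception in the list was discs overgrown (dco), the casein kinase gene, with 8, 12 and 18. No core kinase of the Hippo cassette was among the nearest genes. With a background of 1.58% of all genes, that is no result about so few genes.

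The lists of 4 signalling pathways had 1 to 3 genes each. The region of hedgehog (hh), a ligand gene, on 3R from 23141908 to 23142680, had 44 and 21 fragments in the Osa-GFP replicates and 10 in yw replicate 2, so the replicates differed from each other by more than the lower of them did from the control. Serrate (Ser), a Notch ligand gene, had 13, 13 and 5 in a region centred 31.5 bp inside its span. The Notch list had no other gene (1 of 24). The Hh list had hh and en (2 of 11), and the Wg list wg and pangolin (pan), the TCF factor, with 7, 7 and 8 (2 of 22). In the Dpp list (3 of 17), brinker (brk), the repressor of Dpp targets, had 29, 28 and 11 fragments on X from 7307366 to 7308209, and Mad, the Smad factor, had 11, 5 and 5 beside salm. The EGFR pathway list had 0 of 18 and the SWI/SNF subunit list 0 of 14, lists too short for a count of 0 to be set apart from the 1.58% of all genes.

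Ecdysone response genes numbered 4 of 21. The nuclear receptor gene ftz-f1 had 13, 22 and 6 fragments and the ecdysone-inducible gene ImpE2 18, 17 and 11, with yw lowest. At the ecdysone-inducible gene ImpE1 (8, 6 and 10) and the nuclear receptor gene Hr39 (5, 5 and 10) yw was highest. Of 29 Polycomb and Trithorax genes, ph-d and Su(z)2 (17, 15 and 8) were present. No gene of the lists for heat shock (21 genes), cytosolic ribosomal proteins (85), mitochondrial ribosomal proteins (73), the proteasome (48) or chemoreceptors (179) was a nearest gene. With a background of 1.58% of all genes, a count of 0 in a list of these sizes is no result about the list. Among marker lists of other tissues, trh stood for the trachea (1 of 9), and the lists for adult muscle precursors, hemocytes, neurons, germline and fat body (10, 12, 12, 9 and 10 genes) had 0.

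Over the 606 genes of the 16 pathway and gene class lists together, 27 (4.46%) were nearest genes of the 220 regions, 11 (1.82%) of Osa-GFP-specific regions at gene ends and 41 (6.77%) of yw-only regions at gene ends. The shares of all protein-coding genes were 1.58%, 1.29% and 6.12%. The nearest genes of the 220 regions were long, with a median span of 9866 bp (7458 to 12487 bp) against 2163 bp over all protein-coding genes, and the part of span length in these counts was not tested. Of the 220 genes, 82 (37.3%) were also the nearest gene of an Osa-GFP-specific region somewhere in their neighbourhood, against 954 (6.85%) of all protein-coding genes. osa, the tagged gene, was not among them. Its nearest candidate was centred 603 bp from an end, just past the limit, with 10, 11 and 26 fragments in Osa-GFP replicates 1 and 2 and yw replicate 2. The 2 regions just inside the limit lay 489 bp from CG43163 (10, 16 and 10) and 494 bp from Oatp30B (9, 13 and 11). The 2 just outside lay 505.5 bp from zld (5, 8 and 6) and 507.5 bp from CG12581 (8, 11 and 9).

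yw stood highest most often in the regions centred within 200 bp of a gene end. Of the 46 regions centred within 100 bp of an end, the yw summit was above both Osa-GFP summits in 37.0% (23.2% to 52.5%), and of the 63 at 100 to 200 bp in 42.9% (30.5% to 56.0%). At 200 to 300 bp the share was 27.1%, at 300 to 400 bp 21.2%, and at 400 to 500 bp 10.0% (2.11% to 26.5%; 30 regions). Farther out, regions of the same 3 libraries gave 16.7% at 500 to 1000 bp, 14.5% up to 5000 bp and 13.7% (11.0% to 16.8%) beyond. The share with yw below both went up over the first 5 bands from 32.6% within 100 bp to 70.0% at 400 to 500 bp, was 63.7% at 500 to 1000 bp and 70.5% up to 5000 bp, and stood at 72.2% beyond. Over the 5 bands up to 500 bp the median summit went 8, 10, 11, 11 and 12 fragments in Osa-GFP replicate 1, 8, 9, 10, 8 and 11 in Osa-GFP replicate 2 and 8, 9, 9, 7 and 8 in yw replicate 2. Beyond 5000 bp the medians were 16, 13 and 8. The intervals cover counting error only, and neighbouring regions are not independent.

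**Figure D3:**
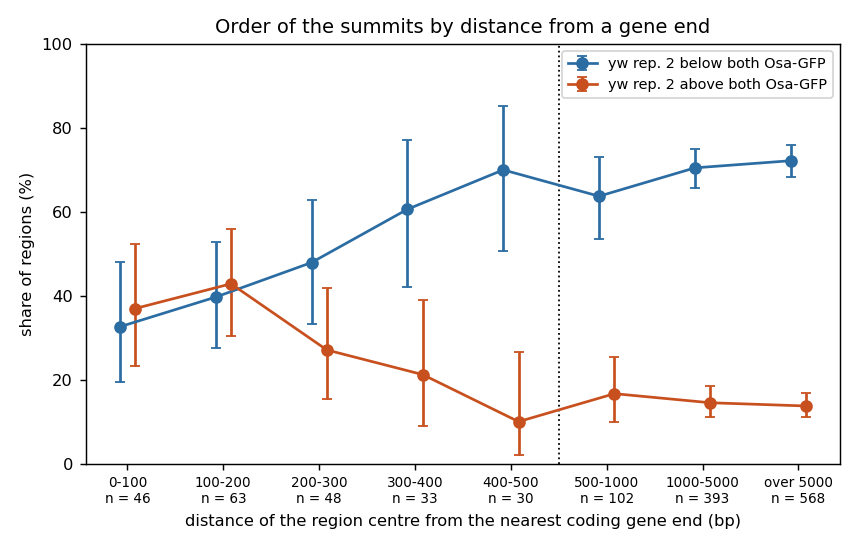
Share of the 1283 regions with peaks of both Osa-GFP libraries and yw replicate 2 alone (y axis, %) in which the yw summit was below both (blue) or above both (orange) Osa-GFP summits, by distance from the nearest coding gene end (x axis, bp, bands of unequal width). Bars are exact 95% intervals and the dotted line marks the 500 bp limit; the curves meet within 200 bp of an end and part to 70.0% and 10.0% at 400 to 500 bp.

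The 67 regions with yw highest were centred a median of 152.5 bp from a gene end (134.5 to 192.5 bp) and the 104 with yw lowest 251 bp (207 to 287 bp). The former were narrower, with a median width of 461 bp against 572.5 bp. Within them the yw peak was the wider, at 373 bp against 264 and 228 bp in the Osa-GFP libraries, and in the regions with yw lowest it was the narrower, at 232 bp against 480 and 389 bp. The split was made by the summit height of the same peaks, and width was not tested apart from height. These widths are therefore no separate result. Centres lay inside a coding span in 47.8% of the regions with yw highest, 47.1% of those with yw lowest and 47.7% of all 220 regions. The remaining regions sat in the DNA just outside a gene.

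Closely spaced gene ends differed in frequency between the kinds of region. Ends of 2 or more protein-coding genes lay within 500 bp of the centre in 35 of the 220 regions (15.9%, 11.3% to 21.4%). Osa-GFP-specific regions needed a peak of both Osa-GFP libraries, but yw-only regions a peak of just 1 yw library. Of the 868 yw-only regions at gene ends, 800 held a yw replicate 2 peak. The share was 5.43% (2.64% to 9.77%) of the 184 Osa-GFP-specific regions at gene ends and 48.4% (45.0% to 51.8%) of the 868 yw-only regions there. Within the 220, it was 7 of the 104 regions with yw lowest (6.73%, 2.75% to 13.4%), 8 of the 49 in between and 20 of the 67 with yw highest (29.9%, 19.3% to 42.3%). It was 9 of 41 (22.0%, 10.6% to 37.6%) in the gene-end regions called in all 4 libraries. The share over all merged gene-end regions was not taken, so a surplus in one kind cannot be told from a deficit in another. The regions with yw highest also lay nearer to an end, at a median of 152.5 bp against 251 bp with yw lowest. The part of that distance in these shares was not tested. Among the gene pairs with yw highest was Vha55, a subunit gene of the vacuolar proton pump, beside Snx3, with 9, 7 and 19 fragments in Osa-GFP replicates 1 and 2 and yw replicate 2. At chic beside eIF4A, the gene of a translation initiation helicase, the numbers were 10, 4 and 21. At dome, the JAK/STAT receptor gene, beside Ubqn they were 8, 5 and 16, at Hipk, a kinase gene, beside Cypl 7, 6 and 18, and at Vps60 beside anchor 9, 6 and 19. Pairs with yw lowest were tld and tok, genes of related secreted proteases (9, 10 and 6), and CG44245 and Gyg (13, 12 and 5). These pairs were picked after their values were seen.

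The same measure can be taken in each library over all its peaks centred within 500 bp of a coding gene end, whatever the other libraries hold. Ends of 2 or more genes were in reach of 17.3% of 852 such peaks in Osa-GFP replicate 1 and 17.9% of 688 in Osa-GFP replicate 2. In yw they were in reach of 37.6% of 170 in replicate 1 and 40.6% of 1256 in replicate 2. The groups did not overlap, and the shallow yw library stood beside the deep one. The means were 17.6% ± 0.442 (SD, n = 2) and 39.1% ± 2.09 (SD, n = 2), a difference of -21.6 percentage points for Osa-GFP minus yw with a two-sided exact permutation p of 0.33. That is the smallest p that 2 libraries against 2 allow; the test cannot pass a threshold in this design.

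**Figure D4:**
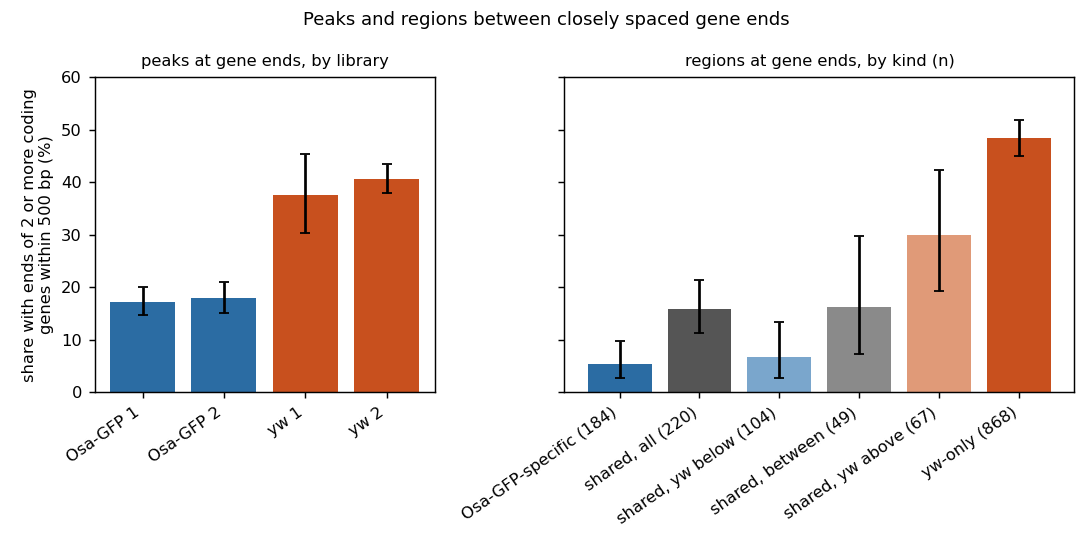
Share of peaks or regions centred at a gene end that have ends of 2 or more protein-coding genes within 500 bp (y axis, %), on the left for all such peaks of each library and on the right for kinds of merged regions with their number in brackets. Bars show exact 95% intervals; the Osa-GFP libraries stand at 17.3% and 17.9% and the yw libraries at 37.6% and 40.6%, and the shared regions rise from 6.73% with yw lowest to 29.9% with yw highest.

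Summits of tagged and untagged libraries lay under 100 bp apart in the typical region. Short distances are in part set by the rule, which asks for overlapping peaks. Median peak widths were 350.5 and 308.5 bp in Osa-GFP replicates 1 and 2 and 280.5 bp in yw replicate 2. The median distance between the strongest summits of the 2 Osa-GFP replicates was 61.5 bp (50 to 75 bp). Between yw replicate 2 and Osa-GFP replicates 1 and 2 it was 78 bp (61 to 96 bp) and 84.5 bp (60 to 101 bp). All 3 summits fell within 100 bp of each other in 92 of the 220 regions (41.8%, 35.2% to 48.6%), where the background over the 1283 regions of these libraries was 38.0%. In the regions with yw highest the 3 medians were 66, 60 and 57 bp, in that order, and in those with yw lowest 59.5, 89 and 100 bp. Fatp3 is an example of coincidence, with all summits within 6 bp, as are CG7766 and wg, each with all summits within 9 bp. In 19 regions the summits lay over 500 bp apart. The widest spread was 1249 bp at ft. The yw summit was the nearest of the 3 to the gene end in 79 regions and the farthest from it in 75. Of the 220 regions, 33 held more than 1 peak of a library.

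**Figure D5:**
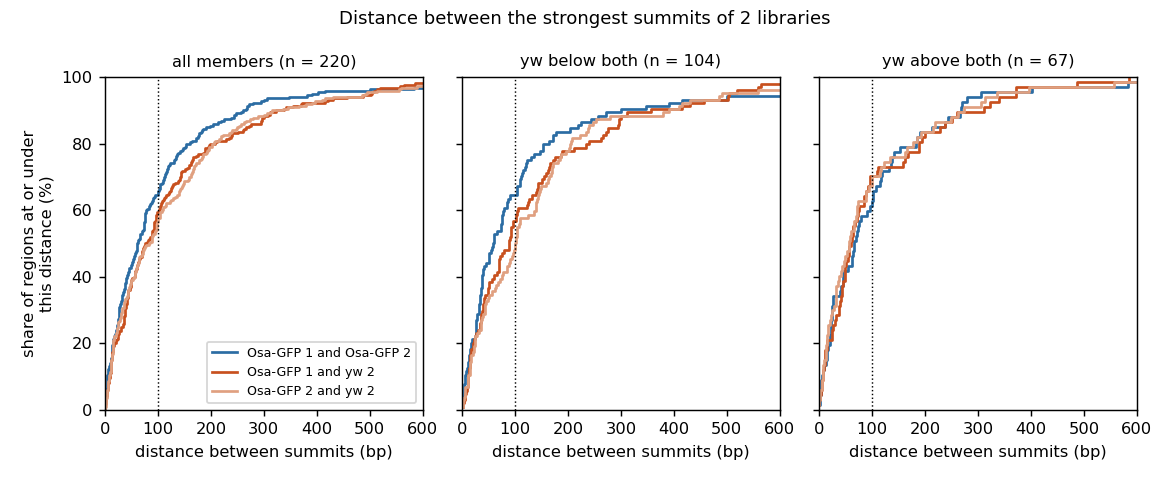
Cumulative share of regions (y axis, %) by the distance between the strongest summits of 2 libraries (x axis, bp, shown to 600 bp), for all 220 regions, the 104 with yw below both and the 67 with yw above both. The blue line is the Osa-GFP pair and the orange lines pair each Osa-GFP library with yw replicate 2; the medians are 61.5, 78 and 84.5 bp over all regions, and the dotted line marks 100 bp.

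In nearness to Osa-GFP-specific regions, the 220 regions stood between the Osa-GFP-specific and the yw-only regions at gene ends. An Osa-GFP-specific region, called in the tagged libraries alone, was centred within 5000 bp of 50 of them (22.7%, 17.4% to 28.8%), of 35.3% (28.4% to 42.7%) of Osa-GFP-specific regions at gene ends and of 7.60% (5.93% to 9.57%) of yw-only regions there. The same held for 42.8% (39.8% to 45.8%) of the 1063 shared regions away from gene ends. It held for 17.1% (7.15% to 32.1%) of the 41 gene-end regions called in all 4 libraries. Within the 220, the share was 24.0% in the regions with yw lowest and 23.9% in those with yw highest. The median distance to such a region was 12215 bp (8324.5 to 16071.5 bp) with yw lowest and 21413 bp (12372.5 to 40583.5 bp) with yw highest, with overlapping intervals. hh had such a region 1299 bp away, caup 4065 bp, trh 1026 bp and corto, a chromatin factor gene with 13, 15 and 18 fragments, 2477 bp. The 41 gene-end regions in which yw replicate 1 had a peak as well were chosen in part by yw height, since a call in that shallow library needs a high summit. There the medians were 12 and 9 fragments in the Osa-GFP libraries and 21 in yw replicate 2, and yw replicate 2 was above both in 32 (78%, 62.4% to 89.4%). By arm, the 220 regions numbered 44 on 2L, 41 on 2R, 45 on 3L, 53 on 3R, 35 on X and 2 on the fourth chromosome, at pan and zfh2. No noncoding gene overlapped 198 of them; a long noncoding RNA gene overlapped 15, an antisense RNA gene 6 and a pseudogene 1.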

How the data were processed

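The 4 peak lists (narrowPeak, dm6), 1 per library, were used as deposited. MACS2 2.1.2, deepTools 2.4.1, Picard 2.2.4, Bowtie2 2.3.4.1 and SAMtools 1.10 are named in the submitters' processing notes, without the threshold of peak calling. The peak's fold is a ratio computed by the authors' peak caller, its p and q are deposited as −log10 values, and the deposited integer score repeats −log10 q and was not used. The last deposited column, the summit's offset, is another quantity, a position in bp.

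Whole summit fragments F and 1 background b per library were recovered from fold = (F + 1)/(b + 1), to within 2.39e-05 of a whole number; they returned every −log10 p under 100 to within 9.74e-06. PCR copies are not independent, so intervals (exact, 95%) cover counting error only. Peaks on 6 arms were merged at 1 bp overlap and assigned to the nearest end of 13922 protein-coding genes of a RefSeq table that gives no strand. Gene starts could therefore not be told from far ends, and the planned start and motif results were not run. The recovery and merging were tested on simulated data. Regions, gene lists (16 pathway and class lists, 6 of other tissues) and tests were chosen with earlier results of these data known. Named were the nearest genes of the 12 best-ranked, 3 widest and 3 highest-yw regions, list genes and regions at the limit; others were named after their values were seen. scipy 1.17.1 was used.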

Additional observations from a re-analysis of the deposited data

How the results depend on the processing

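The count of shared gene-end regions depends on the thresholds, and the cause was not tested beyond their construction (fewer peaks, a smaller or larger window). The number of regions, 220, became 136 with a limit of 250 bp, 105 at −log10 q of 5 or more and 32 at 10 or more. The q thresholds were applied to every library, yw replicate 1 included, before regions were chosen again. Only 22 of the 220 regions reached 10 in all 3 libraries of the rule, so the 32 include regions outside the 220. A region whose yw replicate 1 peak is weak can enter in this way. Its part in the counts of yw lowest and highest was not tested. At 10 or more the median distance between the Osa-GFP summits became 38 bp, the share with 3 summits within 100 bp 50%, and the regions with yw lowest and highest 9 and 17 (37 and 43 at 5 or more). The share whose depth-scaled yw summit reached the lowest yw replicate 1 summit, 26.8%, became 9.52% and 18.8% at −log10 q of 5 and 10, where the lowest summit is itself higher. The 15.9% with ends of 2 or more genes became 8.82% and 24.8% with limits of 250 and 1000 bp and 9.38% at −log10 q of 10. Leaving out 1 library gave 259 to 302 regions, and 16.6% to 22.9% with ends of 2 or more genes, the highest without Osa-GFP replicate 1. Regions with yw below and above the remaining tagged library numbered 118 and 141 without Osa-GFP replicate 1 and 149 and 127 without Osa-GFP replicate 2, in place of 104 and 67; the regions then numbered 284 and 302, and yw was set against 1 library only. Without yw replicate 1, yw replicate 2 was below both Osa-GFP libraries in 107 and above both in 97 of 259 regions. Without yw replicate 2 the rule cannot be applied.

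The per-library difference of -21.6 points kept its sign in each of the 5 other settings and with each library left out in turn. It ran from -23.5 points (limit of 1000 bp) to -14.9 points (250 bp), and leave-one-out values from -23.0 to -20.1 points. The exact permutation p was 0.33 in 4 of the 5 other settings and 0.67 at −log10 q of 10. With the replicate number as a block the difference stays at -21.6 points by construction, and the smallest exact permutation p is 0.50. Over 267 regions with peaks of all 4 libraries, deviations of same-numbered libraries correlated at 0.0047. The labels do not say that a number marks a shared day or batch, so the numbers were not used as pairs. The tests on yw height and on ends of 2 or more genes were chosen after seeing the data.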
